A study of Mus musculus with 9 samples.

Results

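The lysosomal cathepsins considered here are 10 genes chosen by name: Ctsa, Ctsb, Ctsc, Ctsd, Ctsg, Ctsh, Ctsk, Ctsl, Ctss and Ctsz. All 10 were found among the 52381 genes of the deposited table. RNA sequencing was done on lung tissue of 9 mice with acute lung injury (ALI) from lipopolysaccharide (LPS), a bacterial cell wall component that sets off inflammation. The 4 LPS-ALI mice had the injury alone. The 5 TMAO mice had the same injury and were also treated with trimethylamine N-oxide (TMAO), a metabolite that arises from gut bacterial products. Both groups carry the LPS injury, and lungs without LPS are not analysed here. The sources used here give no strain, sex, age, dose or time. Each library comes from 1 mouse by its label, so p-values measure the spread between mice.

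Cathepsins are proteases that work mostly in the acid interior of lysosomes, the compartments in which cells break down engulfed and worn-out material. Most are cysteine proteases related to papain, Ctsd is an aspartic protease, and Ctsa and Ctsg are serine proteases. Cystatins hold the cysteine members in check outside the lysosome. Most cathepsins are made as inactive precursors and activated by cleavage at low pH. In the lung, macrophages are rich in many of them, alveolar type 2 cells use Ctsh in the processing of surfactant protein precursors, and Ctsc activates the serine proteases of neutrophil granules.

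Transcription factors of the MiT family, with Tfeb as the best known, bind a palindromic E-box that many lysosomal genes carry near their start, and interferon-regulated factors bind repeats of GAAA. Promoter windows from RefSeq on GRCm38.p6, 250 bases before to 50 bases after a start site, were matched by symbol for 8 of the 10 genes, all but Ctsb and Ctsh, in 9 windows. The E-box CACGTG, searched on both strands, was in the windows of Ctsa, Ctsd and Ctsl, and in 7.15% of all 32851 windows. The longer form TCACGTGA, which contains the E-box, was in those of Ctsa and Ctsd, and in 0.974% of all windows. A repeat of GAAA with any 2 bases between its copies was in the window of Ctss alone among the members, and in 3.44% of all windows. The windows shown are those of Ctsd and Ctsa, which hold the longer form, and of Ctss, which holds the GAAA repeat. Any link between these matches and the levels across libraries was not tested. Capitals mark the E-box in Ctsd and Ctsa and the GAAA repeat in Ctss, and each sequence is given 5′ to 3′ along its gene's strand.
Ctsd: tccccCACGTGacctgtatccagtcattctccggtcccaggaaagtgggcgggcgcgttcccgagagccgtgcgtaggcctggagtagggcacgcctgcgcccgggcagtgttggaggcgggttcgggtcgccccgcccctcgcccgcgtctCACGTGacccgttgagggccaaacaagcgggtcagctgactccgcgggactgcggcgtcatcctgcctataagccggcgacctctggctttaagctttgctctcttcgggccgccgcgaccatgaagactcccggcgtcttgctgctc
Ctsa: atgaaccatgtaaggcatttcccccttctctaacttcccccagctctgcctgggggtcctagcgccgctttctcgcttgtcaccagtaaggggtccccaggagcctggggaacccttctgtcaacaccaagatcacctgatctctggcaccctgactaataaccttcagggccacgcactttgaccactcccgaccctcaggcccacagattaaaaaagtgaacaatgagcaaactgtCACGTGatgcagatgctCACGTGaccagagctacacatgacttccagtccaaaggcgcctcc
Ctss: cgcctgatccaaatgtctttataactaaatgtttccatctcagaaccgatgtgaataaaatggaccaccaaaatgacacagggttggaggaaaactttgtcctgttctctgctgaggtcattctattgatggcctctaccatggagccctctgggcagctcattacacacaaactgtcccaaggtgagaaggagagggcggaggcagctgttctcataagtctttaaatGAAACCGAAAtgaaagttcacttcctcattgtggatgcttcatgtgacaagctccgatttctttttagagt
The Ctsd window is chr7:142387778-142388077 on the minus strand, with E-boxes that begin 245 and 98 bases before the start site. The Ctsa window is chr2:164833523-164833822 on the plus strand, with E-boxes that begin 12 bases before and 5 bases after its start site. The Ctss window is chr3:95526536-95526835 on the plus strand, with its repeat beginning 21 bases before the start. The RefSeq start sites of these Ctsd and Ctsa windows lie inside the genes as GENCODE M21 draws them, so the annotations place the start differently, while for Ctss they coincide. A match is a run of letters in a window, and factor binding was not measured.

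Read totals are not given in the table, and relative depths, read from the steps between low values, were 0.382 to 1, so no counting interval could be set. TMAO replicate 5 was the shallowest. It held 8846 genes with at least 1 FPKM (fragments per kilobase of gene, scaled to the library's total), against 11158 to 12239 in the others, and its median tested gene stood at 1.74 on the log2(FPKM + 1) scale, against 2.74 to 3.35. LPS-ALI replicate 4 had the lowest median correlation with the other libraries, 0.890, followed by TMAO replicate 5 with 0.895, and the remaining 7 had 0.929 or more. LPS-ALI replicates 3 and 4 carry library codes that begin with X, and the other 7 libraries have codes that begin with B. The sources used here do not say what the code stands for. The wording of the extraction protocol names platelets, while the labels name lung. Sftpc, the surfactant protein gene of alveolar type 2 cells, had 710 to 9809 FPKM, whereas the 8 platelet markers summed to 18.3 to 75.2 FPKM.

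All but 2 of the cathepsins were abundant in these lungs. In order of mean FPKM over the 9 libraries they were Ctsh (151), Ctsd (109), Ctsb (74.4), Ctsc (74.2), Ctsl (54.2), Ctss (51.4), Ctsz (51.0), Ctsa (27.2), Ctsk (3.54) and Ctsg (0.262). Ctsh lies on chromosome 9 (mm10, 90054152 to 90076089), Ctsd on chromosome 7 (142375911 to 142388038) and Ctss and Ctsk close together on chromosome 3 (95526786 to 95556403 and 95499256 to 95509362), by GENCODE M21. The first 7 in the order stood between percentiles 82.2 and 97.6 of the 11817 tested genes in every library. A gene was tested where at least 4 libraries had 1 FPKM or more, and 9 of the 10 members passed, all but Ctsg. Neighbours in the middle of the order did not separate: Ctsb was above Ctsc in 4 of 9 libraries, Ctsl above Ctss in 5, and Ctss above Ctsz in 2, its higher mean coming from LPS-ALI replicate 4. At the ends the order held in single libraries, with Ctsd above Ctsb, Ctsz above Ctsa, Ctsa above Ctsk and Ctsk above Ctsg in 9 of 9, and Ctsh above Ctsd in 8.

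**Figure D1:**
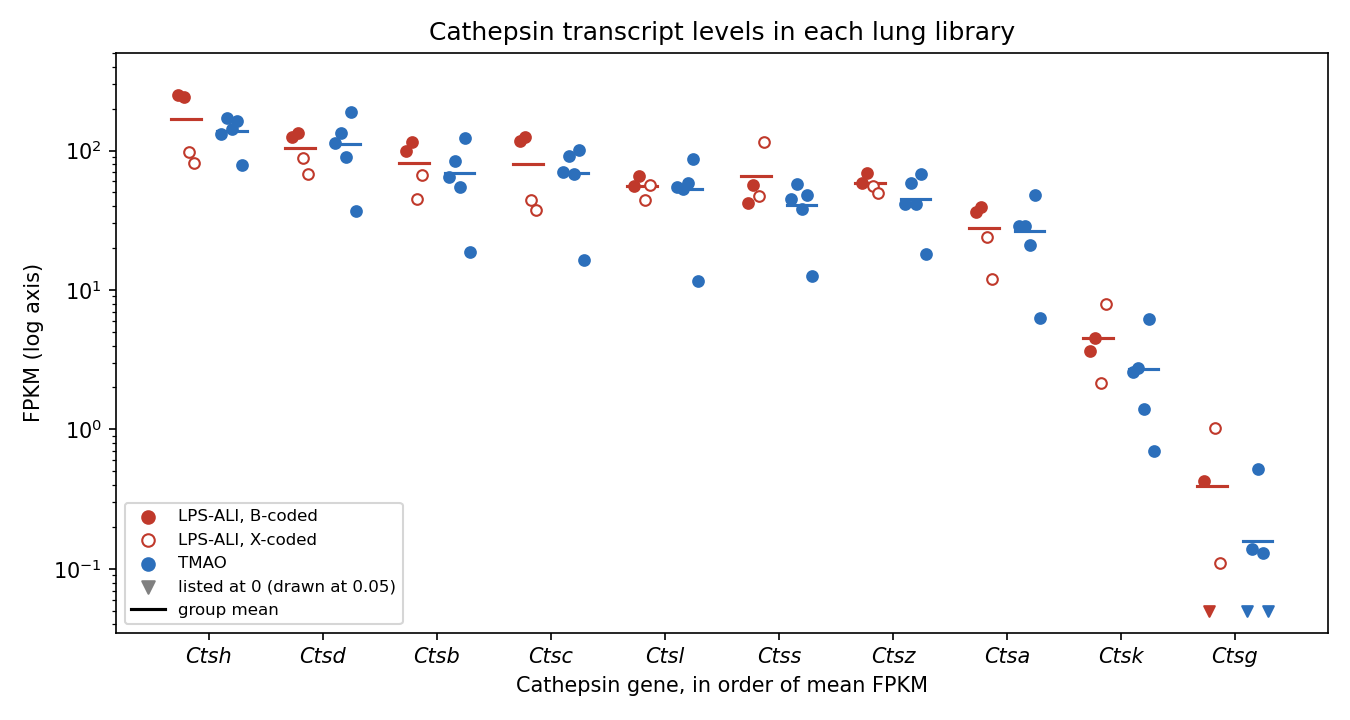
FPKM on a log axis of the 10 cathepsin genes, ordered by mean, with 1 point per library and bars at the group means; open points are the X-coded LPS-ALI libraries and triangles are values listed at 0. The groups overlap for every gene, TMAO replicate 5 is the lowest point of most genes, and in LPS-ALI the open points lie below the filled ones for 6 genes.

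No cathepsin passed the test between TMAO and LPS-ALI lungs, and the FPKM of the groups overlapped for 9 of 9 tested members. The limma adjusted p was 0.998 for each of them, and 0 of 9 had an unadjusted limma p below 0.05. With library weights, 4 of 9 had one, Ctsb, Ctsh, Ctsk and Ctsz, all lower in TMAO lungs (limma adjusted p from 0.229 to 0.299), where 8.91% of all genes were lower at that threshold. Among all 11817 tested genes without library weights, 0% passed the adjusted threshold of 0.05, 3.35% had an unadjusted p below 0.05 and 1.48% did not overlap. The 0 of 9 members on each count is near these shares, and so few members could not show a difference from them. The median tested gene was 0.17 log2 units lower in TMAO lungs, a shift that was -0.01 under median-of-ratios scaling and 0.05 without TMAO replicate 5, and differences and their intervals are given relative to it, with the shift taken as fixed. Each p-value, in contrast, tests the unshifted difference, which is printed beside it. Of the genes with an unadjusted p below 0.05, 50 were higher and 346 lower in TMAO lungs, against 356 and 441 under median-of-ratios scaling. Relative to the median gene 7 of 9 members lay lower, as 50% of all genes do by construction, with a median difference of -0.12 log2 units. That number was 5 to 9 under the alternatives, and Ctsa, Ctsc, Ctsd, Ctsh and Ctsl changed sign under some of them. The quartiles of all tested genes were -0.20 and 0.20. In bulk tissue, fewer cells of a type and less RNA per cell cannot be told apart.

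Ctsd, the main lysosomal aspartic protease, had 126, 134, 89.1 and 67.9 FPKM in LPS-ALI replicates 1 to 4 and 114, 133, 90.0, 188 and 36.8 in TMAO replicates 1 to 5. The highest and the lowest value both belong to TMAO lungs. Means were 104 ± 31.1 (SD, n = 4) and 112 ± 55.5 (SD, n = 5), and the relative log2 difference was 0.15 with a 95% limma interval of -0.75 to 1.05. Ctsa, a serine carboxypeptidase that also protects beta-galactosidase and neuraminidase in the lysosome, had 36.1, 39.6, 23.9 and 11.9 FPKM across LPS-ALI lungs, against 28.9, 28.7, 21.1, 48.3 and 6.32 with TMAO. Its low values were in LPS-ALI replicate 4 and TMAO replicate 5, and its high values in TMAO replicate 4 and the B-coded LPS-ALI libraries. Relative to the median gene, its log2 difference was -0.0018 with an interval of -1.09 to 1.08.

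Among the cysteine endopeptidases, Ctsb, which also trims dipeptides and is widely expressed, had 98.9, 115, 45.1 and 66.5 FPKM across LPS-ALI lungs, against 64.6, 83.7, 55.0, 122 and 18.6 with TMAO. TMAO replicate 4 was the highest and TMAO replicate 5 the lowest, and the other TMAO lungs lay within the LPS-ALI range. For Ctsb the relative log2 difference was -0.21, with an interval of -1.21 to 0.80. Ctsl, a broad endopeptidase of the lysosome, was even across LPS-ALI lungs, with 56.1, 65.3, 44.5 and 56.1 FPKM. In TMAO lungs it had 54.8, 53.4, 58.1, 87.5 and 11.5 FPKM, so that 3 of 5 lay within the LPS-ALI range, with replicate 4 above it and replicate 5 below. For Ctsl the relative log2 difference was -0.12, with an interval of -1.12 to 0.87.

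Ctss, which cleaves the class II invariant chain in antigen-presenting cells and stays active at neutral pH, had the most negative difference of the members. Its FPKM was 42.0, 56.5, 47.6 and 114.5 across LPS-ALI lungs, against 44.8, 57.8, 38.4, 48.2 and 12.7 with TMAO. A single LPS-ALI library was high and a single TMAO library low, and the other 7 lay between 38.4 and 57.8. Means were 65.1 ± 33.5 (SD, n = 4) and 40.4 ± 17.0 (SD, n = 5). The unshifted log2 difference was -0.71 ± 0.44 (SE, unadjusted p = 0.128, adjusted p = 0.998 by limma). Relative to the median gene it was -0.54, with an interval of -1.49 to 0.40. Leaving out LPS-ALI replicate 4 gave a relative value of -0.27, and leaving out TMAO replicate 5 as well gave -0.14. Ctsk, the collagen-cleaving protease best known from osteoclasts, had 3.66, 4.50, 2.16 and 7.91 FPKM across LPS-ALI lungs, against 2.58, 2.75, 1.41, 6.19 and 0.70 with TMAO. Again LPS-ALI replicate 4 was the highest and TMAO replicate 5 the lowest, and TMAO replicate 4 was the next highest. Its unshifted log2 difference was -0.65 ± 0.43 (SE, unadjusted p = 0.155, adjusted p = 0.998 by limma). The relative difference was -0.48, and -0.26 without LPS-ALI replicate 4.

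Among the exopeptidases, Ctsc and Ctsh were uneven within LPS-ALI and Ctsz was not. Ctsc, the dipeptidyl peptidase that activates granule serine proteases, had 117, 124, 43.9 and 37.4 FPKM across LPS-ALI lungs, against 69.6, 91.0, 68.4, 100.5 and 16.4 with TMAO. The B-coded LPS-ALI libraries were above all TMAO lungs, while the X-coded ones were below 4 of 5. The relative log2 difference over all libraries was -0.07, with an interval of -1.18 to 1.04. Ctsh, an aminopeptidase and the most abundant member, had 252, 240.5, 96.9 and 81.6 FPKM across LPS-ALI lungs, against 131, 171, 143, 162.9 and 78.3 with TMAO. It showed the same arrangement, with TMAO replicates 1 to 4 between the B-coded and the X-coded LPS-ALI values. For Ctsh the relative log2 difference was 0.01, with an interval of -0.82 to 0.85. Ctsz, a carboxypeptidase that removes single residues, had similar values in the LPS-ALI lungs, with 58.5, 69.5, 55.4 and 49.4 FPKM, and had 41.1, 58.2, 41.2, 67.4 and 18.1 in TMAO lungs. Here 3 of the 5 TMAO values were under the whole LPS-ALI range and the other 2 within it. Its unshifted log2 difference was -0.47 ± 0.38 (SE, unadjusted p = 0.229, adjusted p = 0.998 by limma), and the relative one -0.30 with an interval of -1.10 to 0.50.

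Ctsg, the serine protease of the primary granules of neutrophils and of some mast cells, was close to undetected. It had 0.43, 0, 1.03 and 0.11 FPKM across LPS-ALI lungs, against 0, 0.14, 0.52, 0.13 and 0 with TMAO. It was listed at 0 in 3 of 9 libraries and reached 1 FPKM in LPS-ALI replicate 3 only. Other primary granule genes, which are transcribed in granulocyte precursors of the bone marrow, were similarly low: Elane was listed at 0 in 6 libraries with 0.55 FPKM at most, Mpo had 0 to 1.08 and Prtn3 0.54 to 3.44. Of 8 mast cell and basophil markers none was above 0 in every library, and they summed to 0 to 1.69 FPKM across LPS-ALI lungs, against 0 to 0.69 with TMAO. The 10 markers of mature neutrophils were above 0 in all libraries and summed to 7641 to 20710 FPKM across LPS-ALI lungs, against 7720 to 14746 with TMAO.

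Within the LPS-ALI group, the levels of most tested cathepsins differed with the library code. For 6 of 9 tested members both B-coded LPS-ALI libraries had higher FPKM than both X-coded ones. These were Ctsa, Ctsb, Ctsc, Ctsd, Ctsh and Ctsz, and 26.2% of all tested genes had this pattern. No member had the opposite arrangement, which 12.5% of genes had. On levels relative to the median gene Ctsz overlapped, with 2.86 and 3.26 log2 units in B-coded and 3.05 and 2.68 in X-coded libraries. Ctsa, Ctsb, Ctsc, Ctsd and Ctsh kept the pattern there. The mean of the B-coded libraries was 2.96 times that of the X-coded ones for Ctsc, 2.76 times for Ctsh, 2.11 times for Ctsa, 1.91 times for Ctsb, 1.65 times for Ctsd and 1.22 times for Ctsz. For the members whose FPKM overlapped it was 1.21 times for Ctsl, 0.81 times for Ctsk and 0.61 times for Ctss. With 2 libraries on each side, no test of this split was made. The summed FPKM of the 10 genes was 790 and 849 in the B-coded LPS-ALI lungs, 449 and 493 in the X-coded ones, and 552, 679, 517, 831 and 199 in TMAO replicates 1 to 5.

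All TMAO libraries are B-coded, so the comparison within the code is of 2 LPS-ALI lungs with 5 TMAO lungs. There 9 of 9 members lay below the median gene, against 50% of genes by construction, with a median difference of -0.40 beside quartiles of all genes of -0.19 and 0.18. This was not particular to cathepsins. Also below it were 21 of 22 lysosomal glycosidase and sulfatase genes and 7 of 7 class II antigen processing genes. So were 10 of 10 neutrophil and 9 of 9 alveolar type 2 markers, but only 1 of 3 MiT family genes. Ctsc and Ctsh had no overlap, both lower in TMAO lungs, as had 5.97% of all tested genes in that direction. The relative log2 difference was -0.67 for Ctsh, -0.79 for Ctsc, -0.63 for Ctsb and -0.51 for Ctsa. The unshifted difference of Ctsh was -0.89 ± 0.36 (SE, unadjusted p = 0.0285, adjusted p = 1.00 by limma), where 1.26% of all genes were lower in TMAO lungs at an unadjusted p below 0.05. Its relative difference had an interval of -1.45 to 0.11, which spans 0. The other 8 members had unadjusted limma p-values from 0.104 to 0.491, and 0% of 11390 genes passed the adjusted threshold. Since X-coded libraries occur in the LPS-ALI group alone, what the code stands for cannot be told apart from the spread between those mice.

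**Figure D2:**
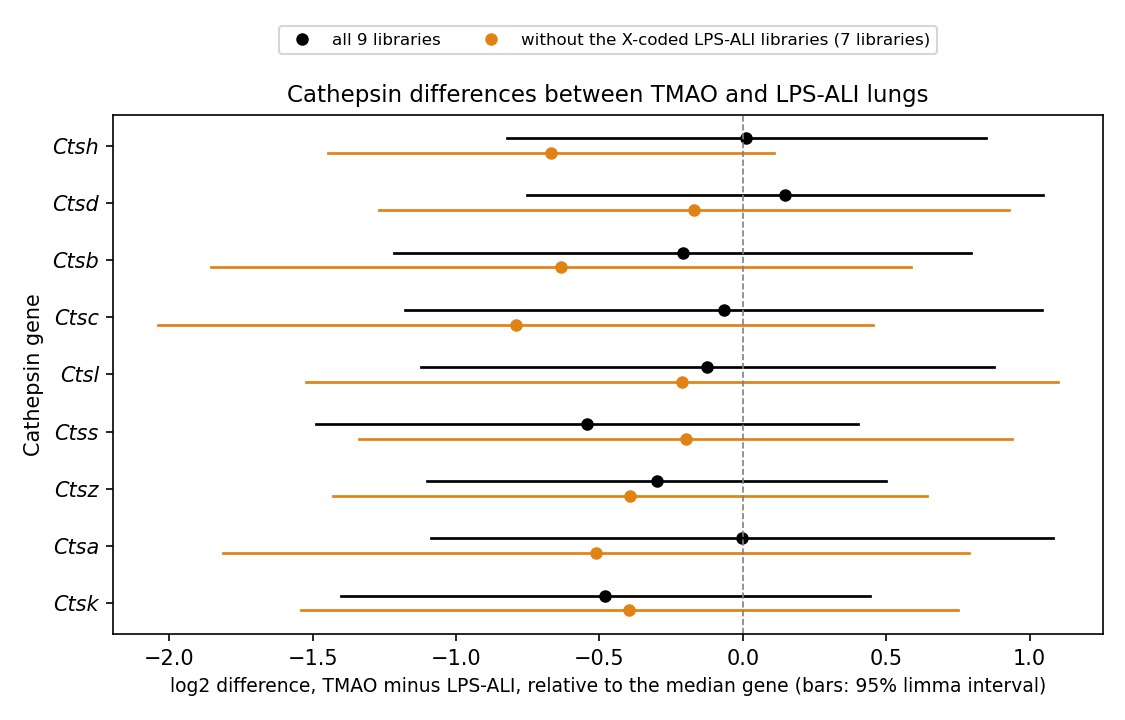
Log2 difference between TMAO and LPS-ALI lungs relative to the median tested gene, with 95% limma intervals, for the 9 tested cathepsins over all 9 libraries (black) and without the X-coded LPS-ALI libraries (orange). Every interval spans 0, and the orange points lie left of the black ones for 7 genes, all but Ctss and Ctsk.

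Ctsh and all alveolar type 2 markers but Etv5 had higher FPKM in both B-coded than in both X-coded LPS-ALI lungs, as had 26.2% of all tested genes. Napsa, the aspartic protease that works beside Ctsh on surfactant protein precursors, had 316, 233, 87.3 and 42.3 FPKM across LPS-ALI lungs, against 177, 210, 176, 212 and 54.4 with TMAO. The 9 alveolar type 2 markers were above 0 in all libraries and summed to 1271 to 14592 FPKM across LPS-ALI lungs, against 4910 to 10965 with TMAO. Their mean level relative to the median gene was 4.98, 4.86, 4.16 and 2.22 log2 units in LPS-ALI replicates 1 to 4 and 4.04 to 4.69 in TMAO lungs, with the lowest in TMAO replicate 5. This order was not particular to type 2 markers. Endothelial markers had means of 3.26, 3.49, 2.66 and 1.35 in LPS-ALI replicates 1 to 4. Neutrophil and dendritic cell markers had the same order, and ciliated cell and lymphocyte markers the opposite one. The part of type 2 cells in the Ctsh values was not tested. In TMAO replicate 5 Ctsh and Napsa parted: the relative level of Ctsh, 4.57, was the highest of the TMAO group, while that of Napsa, 4.05, was the lowest. The type 2 markers were mixed in that library. Sftpc, at 10.17, was the highest of the TMAO group, as Ctsh was, and Sftpd, at 5.27, was the lowest, as Napsa was. Ctsb, Ctsc, Ctsd, Ctsl, Ctss, Ctsz and Ctsa were there at the lowest of the group, and Ctsk, at -0.97, was in the middle of its range of -1.58 to -0.50.

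Of 13 alveolar macrophage markers in the table, a list that contains Ctsk, 12 were above 0 in all libraries, with Fabp1 at 0 in some. They summed to 298 to 491 FPKM across LPS-ALI lungs, against 142 to 360 with TMAO, with 10 of 12 tested markers below the median gene and a median difference of -0.43. The 12 interstitial macrophage and monocyte markers were above 0 in all libraries and summed to 309 to 522 FPKM across LPS-ALI lungs, against 184 to 320 with TMAO, with 6 of 10 below the median gene. Relative to the median gene, the mean of the alveolar macrophage markers, Ctsk among them, was highest in LPS-ALI replicate 4. It was 1.04 log2 units there, against 0.03 to 0.62 in the other 8 libraries. The means of ciliated cell (2.48) and platelet markers (0.09) were also highest there, and that of lymphocyte markers (-0.75) was level with LPS-ALI replicate 3. The mean of the interstitial macrophage and monocyte markers was 0.83 there and 0.62 to 1.17 in the others. Single alveolar macrophage markers differed. Krt79 had 12.5 FPKM in that library and 0.66 to 3.38 elsewhere, whereas the relative level of Mrc1, -0.12, was above that of TMAO replicate 5 alone. LPS-ALI replicate 4 had the highest Ctss and Ctsk FPKM, and the lowest Ctsa, Ctsc, Ctsd, Ctsh and Ctsz FPKM of the LPS-ALI group. The part of macrophage numbers in these values was not tested. Among the other marker lists, the median difference was -0.14 for neutrophils, -0.04 for dendritic cells, 0.24 for alveolar type 2 cells, 0.21 for fibroblasts, 0.53 for endothelium, -0.93 for ciliated cells, -0.25 for lymphocytes and -0.69 for platelets. Without the X-coded libraries it was -0.37, -0.37, -0.66, -0.18, -0.09, -0.19, -0.32 and -0.68 in the same order, so that alveolar type 2, fibroblast and endothelial markers turned direction. When single libraries were left out, the lowest medians were -0.42 for alveolar type 2, -0.20 for fibroblast and 0.08 for endothelial markers. The first 2 of these lists thus turned direction with 1 library left out as well. In each of these lists 0 markers passed the adjusted limma threshold.

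The makeup of the cathepsin transcripts differed between libraries. Ctsh made up 31.9%, 28.3%, 21.6% and 16.5% of the summed cathepsin FPKM in LPS-ALI replicates 1 to 4, and 19.6% to 39.3% in TMAO lungs. Ctss made up 5.32%, 6.65%, 10.6% and 23.2% across LPS-ALI lungs, against 5.80% to 8.51% with TMAO. In LPS-ALI replicate 4 it was the largest share of all, a place held by Ctsd in TMAO replicate 4 with 22.6% and by Ctsh in the other 7 libraries. Ctsd had a mean share of 16.3% ± 2.53 (SD, n = 4) without TMAO and 19.7% ± 2.00 (SD, n = 5) with it. Its shares overlapped, since LPS-ALI replicate 3 had 19.8% and TMAO replicate 3 had 17.4%. Ctsb had a share between 9.33% and 14.7%.

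**Figure D3:**
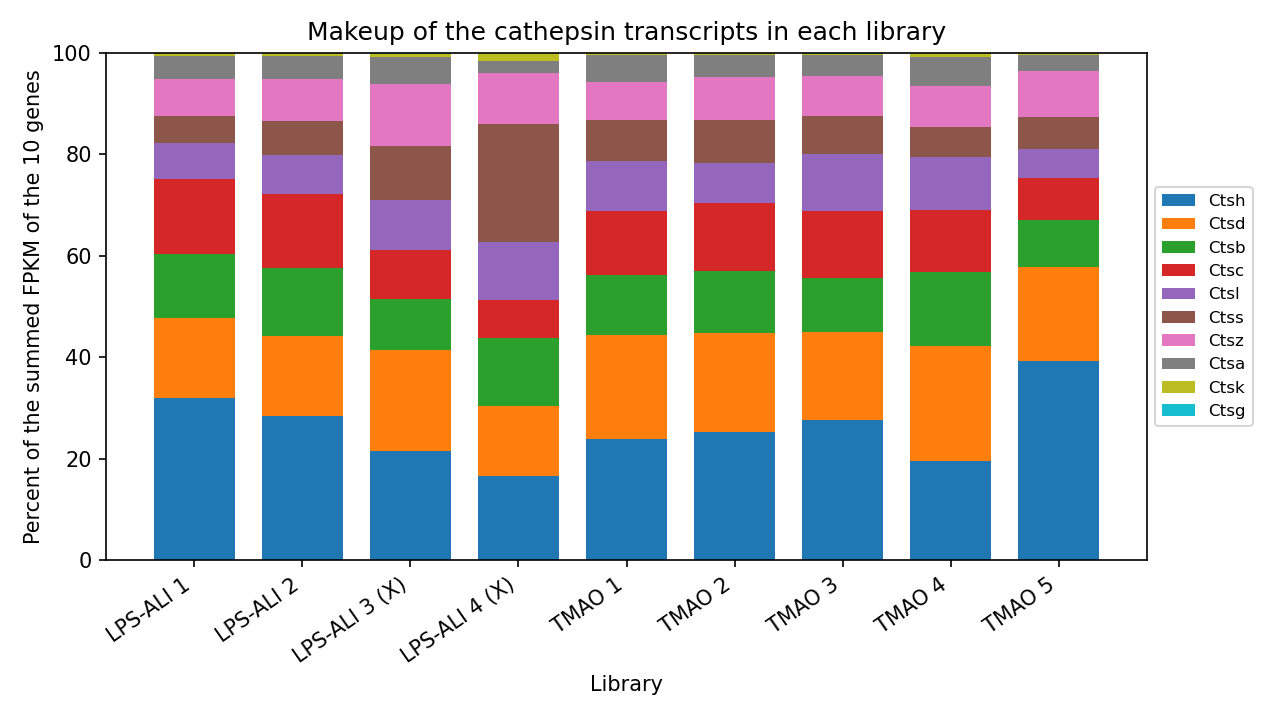
Share of each gene in the summed FPKM of the 10 cathepsins, 1 bar per library, with X marking the X-coded LPS-ALI libraries. Ctsh is the largest part in 7 libraries and reaches 39.3% in TMAO replicate 5, while Ctss takes 23.2% in LPS-ALI replicate 4.

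Several members varied together across libraries. Pearson's r of log2 levels relative to the median gene was 0.96 for Ctsa with Ctsd, 0.87 for Ctsa with Ctsc and 0.84 for both Ctsb with Ctsc and Ctsc with Ctsd. Ctss had negative r with Ctsh (-0.53), Ctsd (-0.40), Ctsa (-0.36) and Ctsc (-0.21), and its highest r was 0.62 with Ctsk. Over all 36 pairs the median r was 0.46. These are 9 libraries with shared differences in depth and cell makeup, and no test was made. Without LPS-ALI replicate 4 and TMAO replicate 5, r was 0.85 for Ctsa with Ctsd and 0.94 for Ctsc with Ctsh. That of Ctss with Ctsh was then 0.15, that of Ctss with Ctsk 0.05, and that of Ctsa with Ctsk went from -0.21 to 0.98. The negative values for Ctss with Ctsh, Ctsd, Ctsa and Ctsc were thus present only with those 2 libraries included, while the high value for Ctsa with Ctsd was present without them.

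**Figure D4:**
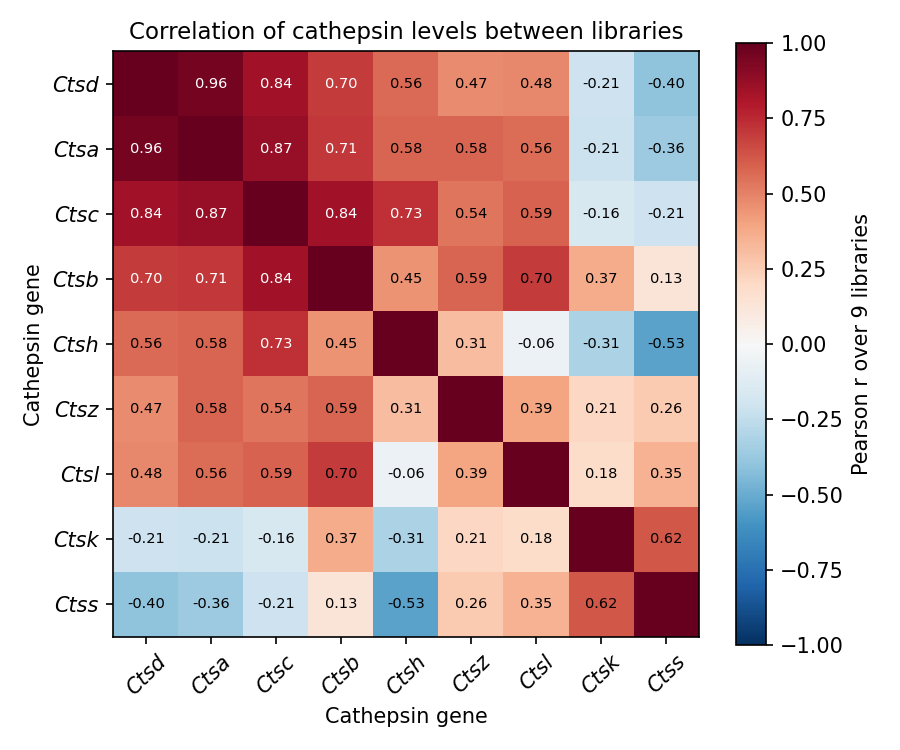
Pearson r between cathepsin genes over the 9 libraries, computed on log2(FPKM + 1) minus the median tested gene of the library. Ctsd, Ctsa, Ctsc and Ctsb form a block with r from 0.70 to 0.96, and Ctss is negative with Ctsd, Ctsa, Ctsc and Ctsh.

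Among 6849 other genes with a mean of at least 5 FPKM, those most like each member by the same r over the 9 libraries were of many kinds. For Ctsa they were Sod3, an extracellular superoxide dismutase gene (r = 0.99), and Itga6, an integrin gene (0.98). For Ctsd they were Plod1 and Bcam (both 0.98), and for Ctsc Atp1b1 (0.97) and H2-K1 (0.95). Tmem59 (0.98) and Cnn2 (0.96) were nearest to Ctsh, and 9530068E07Rik (0.96) and Trim24 (0.94) to Ctsb. For Ctss they were Ssr3 (0.96) and Xbp1 (0.95), genes of the secretory pathway and its stress response. Xbp1 had 106 FPKM in LPS-ALI replicate 4 while its 3 group mates had 46.0 to 52.0, the same single high library as Ctss. N4bp2l2 (0.94) and Cfl1 (0.92) were nearest to Ctsk, Celf1 (0.96) and Idh3a (0.95) to Ctsl, and Selenos (0.93) and Cfp (0.90) to Ctsz. Each r is the highest or next highest of 6849 over 9 libraries, so it is high by selection. These r were not computed without LPS-ALI replicate 4 and TMAO replicate 5.

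Of other cathepsin genes, 4 were examined and 3 tested, with 2 above and 1 below the median gene. Ctsf and Ctso, widely expressed cysteine cathepsins, had 1.29 to 5.30 and 1.51 to 9.09 FPKM, and relative differences of 0.66 and 0.19. Ctsw, a protease of cytotoxic lymphocytes, had 0 to 1.74 FPKM, and Ctse, an aspartic protease, had 0 to 0.71 and was not tested. Of the 3 tested, 0 passed the adjusted threshold by limma and 0 had an unadjusted p below 0.05. Inhibitors of the cathepsins included the members with the smallest p of the lysosomal lists. The stefins Stfa1 and Stfa2, myeloid inhibitors of cysteine cathepsins from a cluster of near-identical copies, so that their reads may be shared, had unshifted log2 differences of -0.87 and -0.74 (unadjusted p = 0.0207 and 0.0464, adjusted p = 0.998 by limma for both). Relative to the median gene they were -0.70 and -0.57. Stfa1 had 14.1, 13.7, 9.92 and 9.28 FPKM across LPS-ALI lungs, against 6.41, 5.62, 8.96, 5.07 and 4.13 with TMAO. These FPKM did not overlap, as in 1.48% of all tested genes, but levels relative to the median gene did, with 0.39 in LPS-ALI replicate 4 and 0.62 in TMAO replicate 5. Stfa2 had 22.0 to 42.7 FPKM across LPS-ALI lungs, against 11.6 to 23.2 with TMAO. Cstb, the cytosolic stefin B gene, stood at 397 FPKM in LPS-ALI replicate 4, with 66.1 to 135 elsewhere. Its relative difference of -0.61 was -0.03 without the X-coded libraries. Over the 10 tested inhibitors 6 lay below the median gene, the median difference was -0.29 and 0 passed the adjusted threshold.

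Other lysosomal genes were examined as 5 lists. Of 22 glycosidases and sulfatases 13 were below it, with a median difference of -0.02, and of 14 lipid, phosphate and nucleic acid hydrolases 7 were, with a median of 0.05. Of 13 genes for activators and sorting 4 were below it, with a median of 0.09, and among these M6pr, a mannose 6-phosphate receptor that carries cathepsins to the lysosome, had a difference of -0.25. Of 16 lysosomal membrane genes 9 were below it, with Cd63, Cd68 and Laptm5 at -0.53, -0.49 and -0.65 and a list median of -0.11. The proton pump had 13 of 16 subunit genes below the median gene and a median of -0.16, with Atp6v0b at -0.48. Each of these 5 lists had 0 members past the adjusted limma threshold and 0 with an unadjusted p below 0.05. Without the X-coded libraries their medians were -0.23, -0.24, -0.24, -0.15 and -0.15 in the same order.

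Of the MiT family, 3 of 4 genes were tested. Tfeb had 3.39 to 7.60 FPKM across LPS-ALI lungs, against 1.63 to 8.46 with TMAO, with a relative difference of 0.22, and Tfe3 had 14.3 to 28.3 and 2.22 to 21.9 FPKM, with a difference of -0.40. Class II antigen processing genes, whose products Ctss serves by cutting the invariant chain Cd74, lay lower in 7 of 7 tested cases, with a median difference of -0.37, with 0 past the adjusted limma threshold. H2-Aa had 151, 111, 59.4 and 114 FPKM across LPS-ALI lungs, against 52.6, 83.6, 57.3, 78.2 and 51.2 with TMAO, an unshifted difference of -0.70 (unadjusted p = 0.0540, adjusted p = 0.998 by limma) and a relative one of -0.53. Cd74 had 99.6 to 279 FPKM across LPS-ALI lungs, against 63.0 to 250 with TMAO, with a difference of -0.37. Partner proteases showed 3 of 6 below the median gene, among them Lgmn, the legumain that processes cathepsin precursors, with 24.7 to 46.7 FPKM in LPS-ALI, 8.68 to 56.9 in TMAO lungs and a difference of -0.04.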

How the data were processed

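The 9 libraries are lung RNA samples, 4 LPS-ALI and 5 TMAO, grouped by their titles. Trizol extraction, removal of ribosomal RNA and a NEBNext library kit were used, per the labels' protocols. The submitters' processing notes name fastp, HISAT2, SAMtools, featureCounts and mm10, without versions. The sources used here give no annotation, strand setting or gene lengths. FPKM were computed and deposited by the authors, rounded to 2 decimals, 1 column per library, and 0 columns were left out. Where a symbol repeats, the row with the highest mean was used.

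FPKM are not counts, so log2(FPKM + 1), which understates changes of low genes, was compared by limma (version 3.58.1, R 4.3.3) with its trend option. Tests were two-sided, with Benjamini-Hochberg adjustment over 11817 genes. Differences are TMAO minus LPS-ALI. The fit was tested on simulated data with independent noise for each gene and library. Those data held no shallow library and no split by library code, so the test does not cover such features. No 2 libraries were copies: at most 63 tested genes had equal values in a pair. Gene names were matched by symbol. Gene lists of 22 kinds, named genes (all members, up to 4 of smallest p per list described, the 2 most alike genes per member) and members were chosen with earlier results of these data known. Genes given beyond that rule (Napsa, Elane, Mpo, Ctse, Fabp1) were picked for their role after values were seen. Krt79 and Mrc1 were picked by their values. Alternatives covered pseudocount, filter, scaling, variance model, replicate block and libraries left out. Python 3.11.15, pandas 2.3.3 and matplotlib 3.10.9 made tables and figures.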

Additional observations from a re-analysis of the deposited data

Results flagged for a closer look

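Among 38 sets of values of a cathepsin within a group, 2 held a library far from the others by Dixon's criterion, and chance alone marks about 1 in 20 such sets. Ctsc in TMAO replicate 5 stood at 2.38 log2 units above the median tested gene, while the other 4 TMAO lungs had 3.27 to 3.50. That library is also the shallowest of the 9. Ctsg in TMAO replicate 3 had 0.52 FPKM, while the other TMAO lungs had 0 to 0.14.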

How the results depend on the processing

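No cathepsin passed the adjusted threshold in any of the alternatives run, and Ctsb, Ctsk, Ctss and Ctsz stayed below the median gene in each of them (-0.63 to 0.00, -0.67 to -0.24, -0.75 to -0.14 and -0.45 to -0.20). With library weights 4 of 9 cathepsins had an unadjusted limma p below 0.05, all lower in TMAO lungs, as were 8.91% of all genes. The main fit had 0 of 9, beside 3.35% of all genes in both directions. Single members also fell below 0.05 in other fits by limma. These were Ctsh without the X-coded libraries (unadjusted p = 0.0285) and Ctsk without TMAO replicate 4 (unadjusted p = 0.0355, adjusted p = 0.811). In the fit without TMAO replicate 4, 533 of 11528 genes were lower at that threshold. The number of all genes past the threshold was 51 with library weights, and 0 to 3 when single libraries were left out (1 when LPS-ALI replicate 3 was, 3 when TMAO replicate 4 was). The members' median of -0.12 was -0.45 with library weights and -0.40 without the X-coded libraries, and -0.31 to -0.0042 when single libraries were left out. Other members changed sign, and the cause was not tested. Ctsa was 0.047 with a pseudocount of 0.1, 0.019 with 0.5, 0.030 for genes with a mean of at least 5 FPKM, 0.042 under median-of-ratios scaling, 0.044 under quantile normalization, 0.012 without mitochondrial genes, and -0.38 to 0.22 when single libraries were left out. Ctsc was 0.00059 under quantile normalization and -0.40 to 0.22 when single libraries were left out. Ctsd was -0.13 with library weights, -0.17 without the X-coded libraries and -0.078 to 0.30 when single libraries were left out. Ctsh was -0.11 without a filter, -0.013 as TPM, -0.51 with library weights, -0.67 without the X-coded libraries, -0.35 without LPS-ALI replicate 4 and TMAO replicate 5, and -0.31 to 0.25 when single libraries were left out. Ctsl was 0.09 without those 2 libraries and -0.23 to 0.12 when single libraries were left out.

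The labels number the mice 1 to 4 in the LPS-ALI group and 1 to 5 in the TMAO group. Deviations of same-numbered libraries correlated at 0.064, -0.011, -0.033 and -0.134, however, and none correlated best with its own number. With the replicate number as a block, 0 genes passed, the members' median was -0.02, and Ctsa, Ctsc, Ctsl and Ctsh were at 0.20, 0.16, 0.12 and -0.018.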
